A study of Homo sapiens with 6 samples.

Results

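The 10 genes described here encode mitotic kinases: PLK1, PLK4, AURKA, AURKB, BUB1, BUB1B, TTK, NEK2, MELK and PBK. The rule that selects them reads the gene symbol and no measured value, and they are 10 of the 35974 genes in the deposited table. The list itself was chosen with earlier results of these data known, so counts of members called only describe this list. RNA was sequenced in 6 libraries of SU-DHL-8, an established line of diffuse large B-cell lymphoma whose source tissue is labelled lymph node. The genotype label of all 6 libraries is DNMT1 wild type. The comparison group, here called DMSO, was given only the solvent (3 libraries). The other group, here called inhibitor, was given a DNMT1 inhibitor (3 libraries). The study's design names the compound GSK3685032. The treatment label of inhibitor replicate 1 gives that name, whereas the labels of replicates 2 and 3 read GSK3685033 and GSK3685034. The 3 were kept as 1 group by their titles. The labels state neither the dose nor how long the cells were treated, and all libraries come from 1 cell line.

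Mitotic kinases are enzymes that add phosphate groups to other proteins to drive and time cell division. Aurora and Polo-like kinases build the spindle, mature the centrosomes and duplicate the centrioles, and the BUB and TTK proteins hold back anaphase until every chromosome is attached. Most of these genes are held low in resting and early-cycle cells by the repressive DREAM complex and are switched on late in the cell cycle by B-MYB with MuvB and by FOXM1. Lymphoma lines divide quickly and usually express them well, and several of the proteins are drug targets in cancer.

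All 10 mitotic kinase genes were lower with the inhibitor. Their summed level was 235, 218 and 235 FPKM (fragments per kilobase of transcript, scaled to library size) in DMSO replicates 1, 2 and 3, and 76.1, 52.5 and 73.4 FPKM in inhibitor replicates 1, 2 and 3. The sum fell from 229 ± 9.41 to 67.3 ± 12.9 FPKM (SD, n = 3 per group), leaving 29.4% of the DMSO level. Every inhibitor library lay below every DMSO library for each of the 10 genes, as it did for 30.0% of the 20783 genes tested. In edgeR's quasi-likelihood test, called at a Benjamini-Hochberg adjusted p of 0.05 over all genes tested, 10 of 10 members were called lower and 0 higher. Of all genes tested, 27.3% were called lower and 38.1% higher (5672 and 7918 genes; 5776 and 4853 of 14807 genes under quantile normalization with limma). All 10 members were also at least 2-fold lower, a size that 8.10% of the tested genes reached. Under upper-quartile scaling AURKA missed this size (log2 fold change -0.95), and its smallest fall over all settings was -0.88.

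The log2 fold changes of the members ran from -2.34 (PBK) to -1.12 (AURKA), with a median of -1.92. The median over all genes tested was 0.14, and 0.31 under upper-quartile scaling, where the members' changes were -2.16 to -0.95. Ranked from the most negative log2 fold change upwards, PBK stood at place 234 of 20783, PLK4 at 264, BUB1B at 281, MELK at 382 and NEK2 at 409. AURKB followed at 532, BUB1 at 595, PLK1 at 775 and TTK at 892, and AURKA came last at 1611. In cultures measured in bulk, fewer cells in the stages that express these genes and less RNA per cell cannot be told apart. The labels do not say whether replicates were separate cultures; the p-values therefore speak only of variation among these 6 libraries, part of which may be technical.

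**Figure D1:**
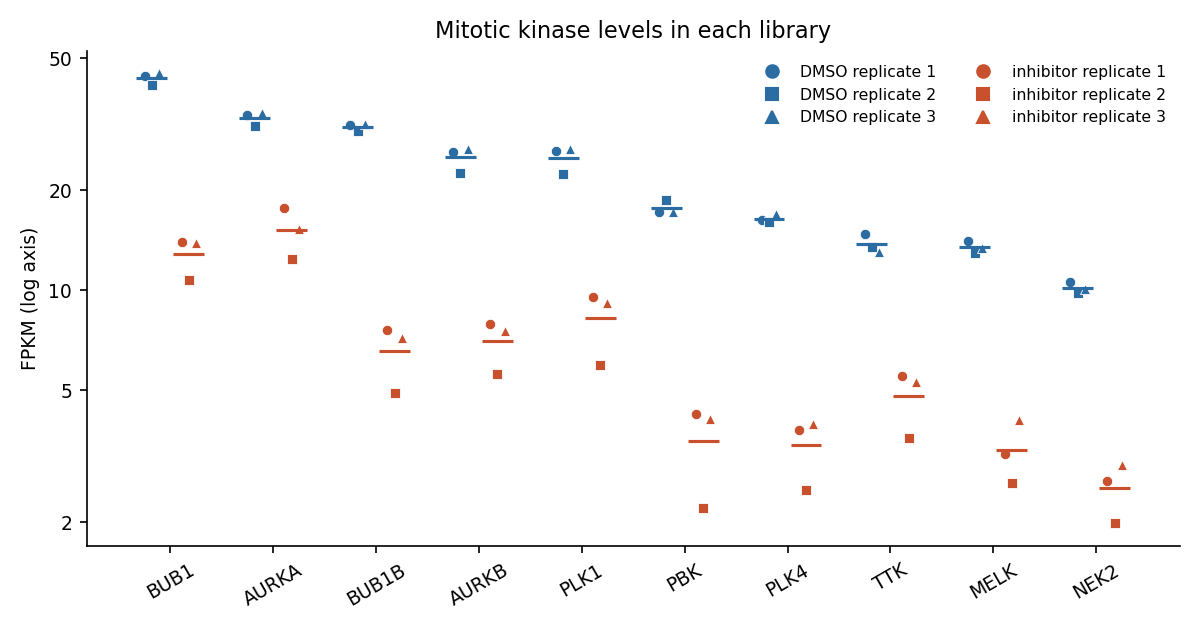
FPKM of the 10 mitotic kinase genes in each library on a log axis; points are single libraries and short lines are group means. For every gene the 3 inhibitor points lie below the 3 DMSO points and the ratio of the nearest points is smallest for AURKA (31.2 FPKM in the lowest DMSO library, 17.7 in the highest inhibitor library).

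The library totals ran from 53846028 to 75304441 counts, about 13461507 to 18826110 read pairs at 4 counts per pair. Counts of the members ran from 292 (PBK, inhibitor replicate 2) to 20941 (BUB1, DMSO replicate 2). The DNMT1 transcript, which encodes the inhibitor's target, was lower with the inhibitor in all 3 libraries (33.0, 33.6 and 32.2 FPKM with DMSO, 13.3, 11.8 and 13.0 with the inhibitor). All 6 B-cell markers examined were present, with a summed level of 862 to 879 FPKM in DMSO and 797 to 863 in inhibitor libraries. Of 5 T-cell markers 2 were in the table (CD3E and CD8A), at 0 in every DMSO library and summing to at most 0.342 FPKM with the inhibitor. The sum of 4 of 5 myeloid markers was 0.568 to 0.798 FPKM with DMSO and 0.750 to 1.01 FPKM with the inhibitor (FCGR3A at 0 in every DMSO library). Sums were higher with the inhibitor, without overlap, for 4 of 5 epithelial markers (0 to 0.0144 against 2.74 to 4.15 FPKM, with EPCAM, KRT18 and CDH1 at 0 in every DMSO library) and for 5 of 5 fibroblast markers (0.0988 to 0.132 against 0.737 to 0.844 FPKM, with COL3A1, PDGFRA and PDGFRB at 0 in every DMSO library). Not every marker followed its sum. COL1A1 had a mean of 0.110 FPKM with DMSO and 0.0819 with the inhibitor and was not called. KRT18 made up most of the epithelial sum with the inhibitor (mean 2.65 FPKM), where CDH1 had a mean of 0.0012 FPKM. The part of these markers in the results on kinases was not tested.

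Because the 10 genes moved together, their proximal promoters were searched for the short motifs known from cell-cycle genes. RefSeq windows of 300 bases (250 before the annotated start and 50 after, GRCh38.p14) were on hand for 7 of the 10 members: PLK1, PLK4, AURKB, BUB1, BUB1B, NEK2 and MELK, in 10 windows. The CHR element (cell cycle genes homology region), the site read by DREAM, was searched as TTTGAA and as TTCGAA, and the NF-Y box as CCAAT, each on both strands. The 120 bases before the start of 4 members and of AURKC, the Aurora paralog that rose, are shown on the gene's own strand. They were picked for holding a match, so they make the motifs look more shared than they are. Not shown are PLK4, with CCAAT 86 bases before an annotated start, AURKB, with matches only further upstream, and MELK, with none. Capitals mark the TTTGAA element and the CCAAT box, the latter on either strand.
PLK1, chr16:23678769-23678888, plus strand: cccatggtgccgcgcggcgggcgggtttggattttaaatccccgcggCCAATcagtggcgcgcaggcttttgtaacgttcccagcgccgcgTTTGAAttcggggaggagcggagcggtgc
BUB1B, chr15:40160949-40161068, plus strand: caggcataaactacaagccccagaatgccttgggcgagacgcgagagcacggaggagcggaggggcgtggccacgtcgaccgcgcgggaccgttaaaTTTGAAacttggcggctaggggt
BUB1, chr2:110678064-110678183, minus strand: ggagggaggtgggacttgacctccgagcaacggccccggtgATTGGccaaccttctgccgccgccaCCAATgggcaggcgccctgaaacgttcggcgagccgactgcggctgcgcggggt
NEK2, chr1:211675622-211675741, minus strand: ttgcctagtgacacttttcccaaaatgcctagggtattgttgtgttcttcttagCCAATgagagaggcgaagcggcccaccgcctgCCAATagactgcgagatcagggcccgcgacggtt
AURKC, chr19:57230903-57231022, plus strand: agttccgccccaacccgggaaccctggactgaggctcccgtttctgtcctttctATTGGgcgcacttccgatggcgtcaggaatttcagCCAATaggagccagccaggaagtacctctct

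TTTGAA was found in 3 of the 10 windows, 1 each of 3 members. In PLK1 it began 29 bases before the start and in BUB1B 23 bases before it, whereas in PLK4 it lay after the start, on the opposite strand. Of all 35116 promoter windows of the same length, 15.16% held TTTGAA. The form TTCGAA was found in 1 of the 10 windows, that of BUB1, just after the start, and in 1.447% of all windows. CCAAT was found in 6 of the 10 windows, from 5 members (PLK1, PLK4, AURKB, BUB1 and NEK2), and in 34.61% of all windows. The 2 AURKB windows overlap and share the same match. The BUB1 and NEK2 sequences above each hold CCAAT at 2 places. AURKC, whose level rose, also held CCAAT at 2 places and held neither CHR form. The E2F letters TTTGGCGC or TTTCGCGC were in 0 of the 10 member windows and in 1.148% of all windows. The MELK window held none of the searched letters. It had 40 CpG sites, against a median of 14 over all windows, and the other member windows had 17 (AURKB) to 33 (PLK1). A match is a description of letters and not of a bound site.

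**Figure D2:**
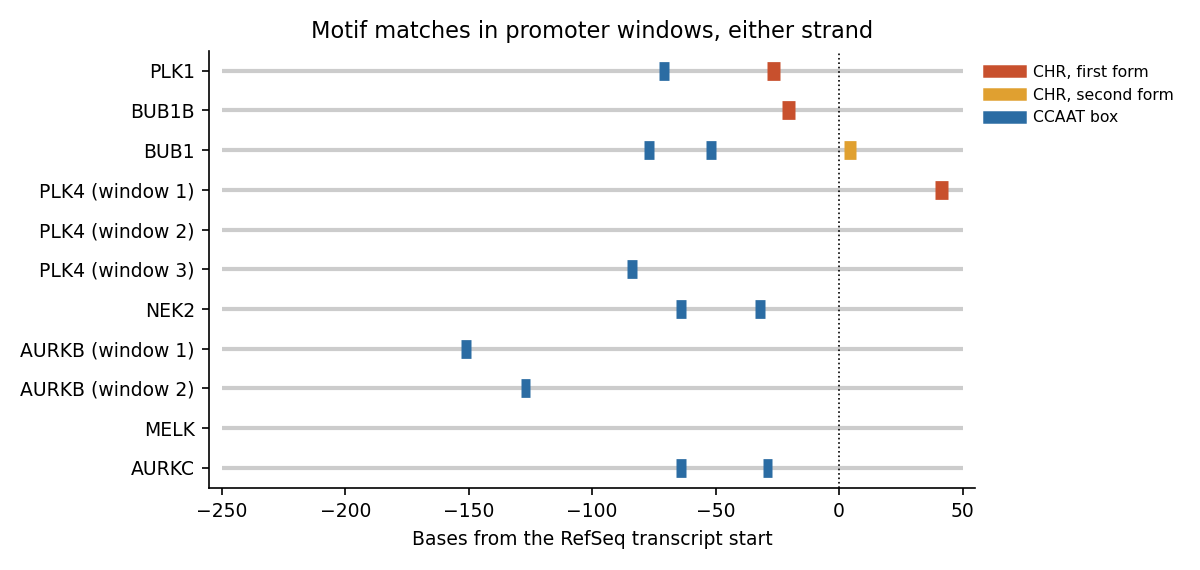
Positions of the searched letters, in bases from the annotated start, in the promoter windows of the matched members and of AURKC; the first CHR form is TTTGAA and the second TTCGAA. The TTTGAA matches of PLK1 and BUB1B lie 29 and 23 bases before the start, and CCAAT matches lie further upstream in PLK1.

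Among the Aurora kinases, Aurora A works at centrosomes and spindle poles and Aurora B at centromeres and the midbody. AURKA (ENSG00000087586, GRCh38 chromosome 20, 56369389 to 56392295, minus strand) had 33.6, 31.2 and 34.1 FPKM in the DMSO libraries and 17.7, 12.4 and 15.3 FPKM in the inhibitor libraries. It kept 46.0% of its DMSO level, the largest remaining share of the 10 genes (log2 fold change -1.12, SE 0.114, edgeR adjusted p = 1.65e-05). The groups did not overlap, although the ratio of the lowest DMSO library to the highest inhibitor library was smaller than for any other member. AURKB (ENSG00000178999, chromosome 17, 8204733 to 8210600, minus strand) had 26.2, 22.5 and 26.7 FPKM with DMSO and 7.93, 5.58 and 7.53 FPKM with the inhibitor. Its log2 fold change was -1.84 (SE 0.129, edgeR adjusted p = 1.46e-06), and 27.9% of the DMSO level remained.

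The family's germline member went the other way. AURKC, best known from meiosis in testis and oocytes, had 0.104, 0.102 and 0.0719 FPKM with DMSO and 2.99, 4.07 and 4.40 FPKM with the inhibitor. Its DMSO counts of 12, 15 and 9 correspond to about 3 read pairs per library, against 325, 438 and 449 counts with the inhibitor. The gene rose by a log2 fold change of 5.28 (SE 0.274, edgeR adjusted p = 2.33e-07). On the log2(FPKM + pseudocount) scale the change was smaller, down to 2.13 with a pseudocount of 1. With the inhibitor its mean of 3.82 ± 0.735 FPKM exceeded those of PBK, PLK4, MELK and NEK2. In inhibitor replicate 1, however, AURKC (2.99 FPKM) lay below PBK (4.25), PLK4 (3.79) and MELK (3.21) and above NEK2 (2.65).

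PLK1, the Polo-like kinase of mitotic entry and centrosome maturation (ENSG00000166851, chromosome 16, 23677656 to 23690366, plus strand), had 26.2, 22.3 and 26.6 FPKM with DMSO and 9.55, 5.96 and 9.16 FPKM with the inhibitor. It fell to 32.8% of the DMSO level (log2 fold change -1.61, SE 0.158, edgeR adjusted p = 1.37e-05). PLK4, which starts centriole duplication (ENSG00000142731, chromosome 4, 127880893 to 127899224, plus strand), had 16.2, 16.0 and 16.9 FPKM with DMSO. In the inhibitor libraries it had 3.79, 2.50 and 3.94 FPKM, 20.8% of the DMSO mean and 4.80-fold lower (log2 fold change -2.27, SE 0.145, edgeR adjusted p = 8.24e-07). Both genes had inhibitor libraries that all lay far below the DMSO range.

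The Polo-like paralogs of stress responses did not fall. PLK2, a p53-inducible kinase, was at 0 in the 3 DMSO libraries and had 1.52, 1.08 and 1.17 FPKM with the inhibitor. That is at least 107-fold higher against a floor of 12 counts (3 read pairs) over the DMSO group, and the bound covers counting error only. PLK3 rose from 3.60 ± 0.236 to 4.72 ± 0.325 FPKM (log2 fold change 0.39, edgeR adjusted p = 0.00913).

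The 3 spindle checkpoint kinases include BUB1, which marks kinetochores by phosphorylating histone H2A. BUB1 (ENSG00000169679, chromosome 2, 110637528 to 110678063, minus strand) was the most abundant member per length with DMSO, at 44.3, 41.4 and 45.0 FPKM, and had 13.9, 10.7 and 13.9 FPKM with the inhibitor. Its fall to 29.4% had the smallest standard error of the 10 (log2 fold change -1.77, SE 0.0973, edgeR adjusted p = 3.16e-07). BUB1B encodes BUBR1, a pseudokinase subunit of the mitotic checkpoint complex that blocks the anaphase-promoting complex (ENSG00000156970, chromosome 15, 40161023 to 40221123, plus strand). It had 31.5, 30.1 and 31.7 FPKM with DMSO and 7.58, 4.90 and 7.19 FPKM with the inhibitor. The remaining share was 21.1%, a 4.74-fold decrease (log2 fold change -2.25, SE 0.140, edgeR adjusted p = 6.88e-07).

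TTK, also called MPS1, is the kinase that recruits the checkpoint proteins to unattached kinetochores (ENSG00000112742, chromosome 6, 80003887 to 80042527, plus strand). Its level was 14.8, 13.5 and 13.1 FPKM with DMSO and 5.52, 3.59 and 5.29 FPKM with the inhibitor. TTK kept 34.8% of its DMSO level, the largest share after AURKA (log2 fold change -1.53, SE 0.143, edgeR adjusted p = 9.92e-06). As with BUB1 and BUB1B, the groups did not overlap.

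NEK2, which separates the centrosomes before spindle assembly (ENSG00000117650, chromosome 1, 211662772 to 211675621, minus strand), had 10.6, 9.80 and 10.1 FPKM with DMSO and 2.65, 1.98 and 2.98 FPKM with the inhibitor. It was 4.0-fold lower (log2 fold change -2.0, SE 0.135, edgeR adjusted p = 1.12e-06) and was the least abundant member in both groups. Other NEK genes followed no single direction. NEK9, which acts upstream of NEK6 and NEK7 in mitosis, fell from 18.5 ± 0.532 to 13.9 ± 0.0845 FPKM (log2 fold change -0.41, edgeR adjusted p = 1.49e-05). NEK8, a kinase of the primary cilium, fell from 3.24 ± 0.378 to 2.25 ± 0.309 FPKM, but this call was lost with inhibitor replicate 1 as the only inhibitor library. NEK3 rose from 1.54 ± 0.0594 to 2.91 ± 0.397 FPKM. NEK7 (11.1 and 10.3 FPKM), NEK1 (1.26 and 1.13 FPKM) and NEK4 (3.01 and 3.18 FPKM) did not pass the test.

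MELK and PBK are kinases of proliferating and progenitor cells whose mitotic roles are less settled. MELK (ENSG00000165304, chromosome 9, 36572862 to 36677683, plus strand) had 14.1, 13.0 and 13.4 FPKM with DMSO and 3.21, 2.62 and 4.06 FPKM with the inhibitor, a 4.09-fold decrease (log2 fold change -2.04, SE 0.134, edgeR adjusted p = 9.84e-07). PBK, also called TOPK (ENSG00000168078, chromosome 8, 27809624 to 27838082, minus strand), had 17.2, 18.6 and 17.2 FPKM with DMSO and 4.25, 2.21 and 4.10 FPKM with the inhibitor. PBK fell the most of the 10, to 19.9% of its DMSO level or 5.03-fold. It also had the largest standard error (log2 fold change -2.34, SE 0.207, edgeR adjusted p = 6.91e-06), and its lowest inhibitor library was well below the other two.

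The order of the members by level changed between the groups. With DMSO the mean FPKM ran from BUB1 (43.6 ± 1.9) through AURKA (33.0 ± 1.56), BUB1B (31.1 ± 0.862), AURKB (25.1 ± 2.26), PLK1 (25.0 ± 2.38), PBK (17.7 ± 0.808), PLK4 (16.4 ± 0.472), TTK (13.8 ± 0.907) and MELK (13.5 ± 0.561) to NEK2 (10.2 ± 0.390). The ranges over libraries overlapped for AURKA and BUB1B, for AURKB and PLK1, and for TTK and MELK, and the other neighbours were apart. With the inhibitor AURKA came first (15.2 ± 2.63), followed by BUB1 (12.8 ± 1.85), PLK1 (8.22 ± 1.97), AURKB (7.01 ± 1.26), BUB1B (6.55 ± 1.45), TTK (4.80 ± 1.06), PBK (3.52 ± 1.14), PLK4 (3.41 ± 0.793), MELK (3.30 ± 0.726) and NEK2 (2.54 ± 0.507). Of these neighbours only BUB1 and PLK1 had ranges that did not overlap. AURKA nevertheless exceeded BUB1 in each of the 3 inhibitor libraries, after lying below it in each of the 3 DMSO libraries.

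The unequal falls were measured within each library, as the log2 ratio of 1 member to the geometric mean of the other 9, which does not depend on library scaling. AURKA moved from 0.74 ± 0.027 to 1.58 ± 0.153, a rise of 0.85 relative to the other 9 genes. The ratios depend on one another: AURKA is part of the reference of every other member, so its rise lowers their ratios. TTK rose by 0.39, PLK1 by 0.29 and BUB1 by 0.14 relative to the rest, with no overlap between groups. PBK fell by 0.55, PLK4 by 0.44, BUB1B by 0.42 and NEK2 by 0.14, again with no overlap. For these 8 genes the exact two-sided permutation test gave p = 0.1, the smallest value that 3 libraries against 3 allow, so none could pass 0.05 (0.125 after adjustment over the 10 members). MELK (-0.18, exact permutation p = 0.2) and AURKB (0.05, exact permutation p = 0.6) had overlapping groups. The BUB1 difference was 0.07 without inhibitor replicate 2, and without inhibitor replicate 1 the NEK2 difference was -0.08 and the MELK difference -0.06. Without DMSO replicate 2 the AURKB difference was -0.0023, with its sign turned.

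**Figure D3:**
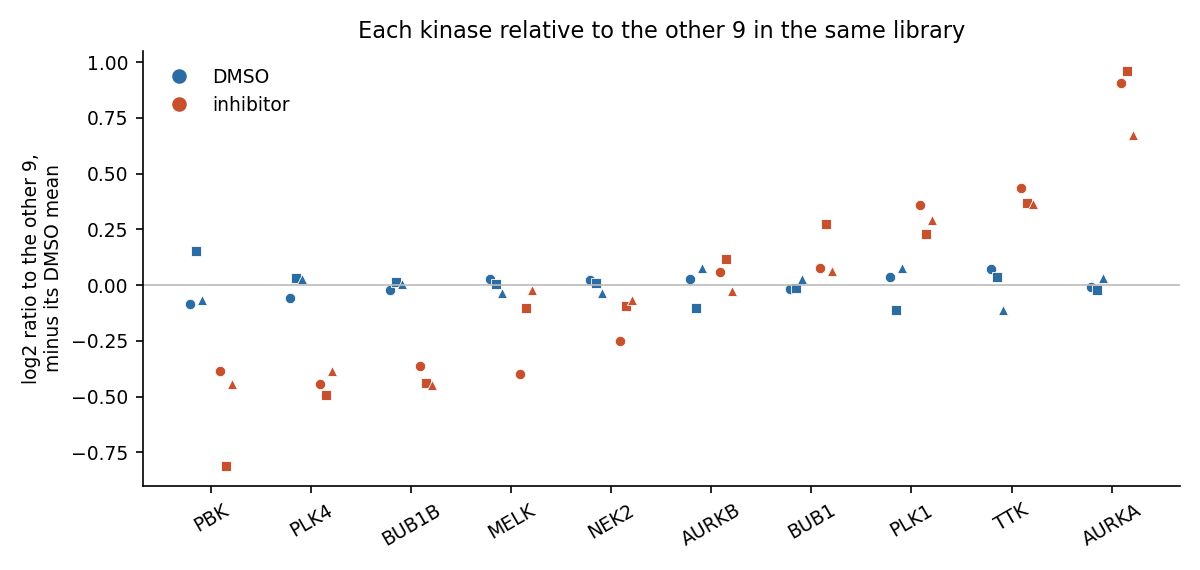
Log2 ratio of each mitotic kinase gene to the geometric mean of the other 9, per library; points are libraries. AURKA moves up by 0.85 and PBK down by 0.55 on this scale, while the points of AURKB and MELK overlap between groups.

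Within each of the 3 families that have 2 members in the set, 1 gene fell more than the other. The FPKM ratio of AURKA to AURKB was 1.29, 1.39 and 1.28 in the 3 DMSO libraries, against 2.23, 2.23 and 2.04 in the 3 inhibitor libraries. The ratio of PLK1 to PLK4 was 1.61, 1.39 and 1.58 in the 3 DMSO libraries, against 2.52, 2.39 and 2.32 in the 3 inhibitor libraries. The ratio of BUB1 to BUB1B was 1.41, 1.38 and 1.42 in the 3 DMSO libraries, against 1.84, 2.19 and 1.93 in the 3 inhibitor libraries. On the log2 scale these 3 ratios were higher with the inhibitor by 0.72, 0.66 and 0.50, without overlap between the groups. The exact two-sided permutation p was 0.1 for each, also after adjustment over the 3 pairs, and it cannot be smaller with 3 libraries per group.

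Inhibitor replicate 2 stood apart within its group: it had the lowest FPKM of the 3 inhibitor libraries for 10 of 10 members. The same library was the lowest for 30.7% of all tested genes, for 40.9% of those called lower and for 50.6% of those called at least 2-fold lower. Relative to the mean of the other 2 inhibitor libraries its level ran from 0.529 (PBK) to 0.770 (BUB1). The members' median log2 CPM, relative to the DMSO mean, was -1.77, -2.27 and -1.75 in inhibitor replicates 1, 2 and 3. Coefficients of variation were correspondingly wider with the inhibitor (14.4% to 32.3%) than with DMSO (2.77% to 9.50%). Its DNMT1 level, 11.8 FPKM, was also the lowest of the group (13.3 and 13.0 FPKM in replicates 1 and 3). The treatment labels of replicates 2 and 3 both differ from that of replicate 1, whose compound name matches the design. Whether these features are linked was not tested. Without inhibitor replicate 2, 10 of 10 members were still called lower, with a median log2 fold change of -1.77.

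**Figure D4:**
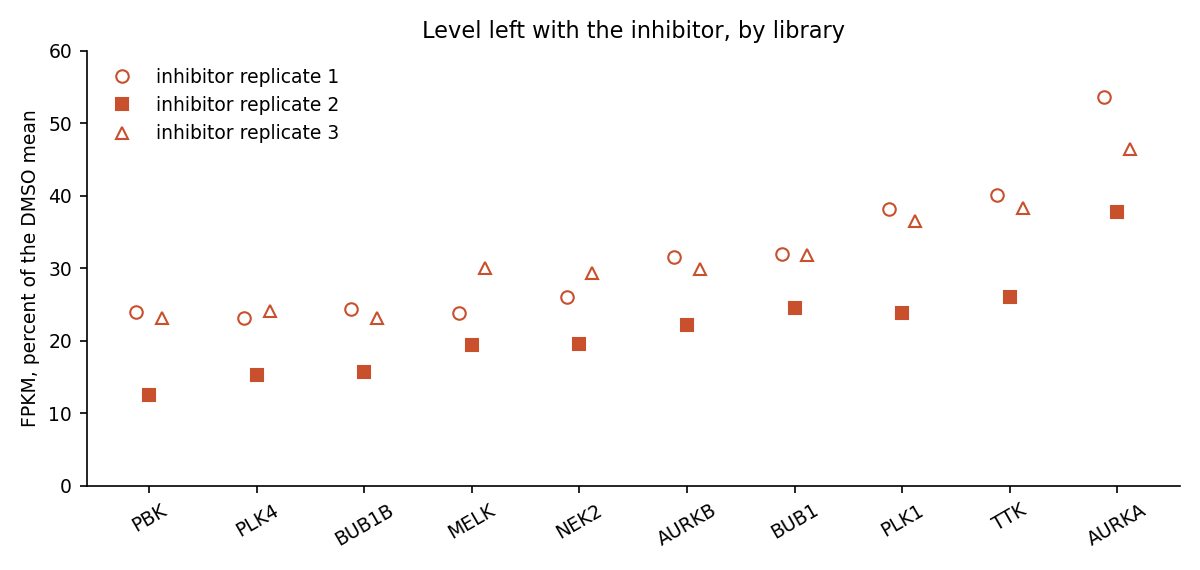
Level of each mitotic kinase gene in each inhibitor library as a percent of its DMSO mean; points are libraries. Inhibitor replicate 2 is the lowest point for all 10 genes, and AURKA keeps the largest share (46.0% on average) and PBK the smallest (19.9%).

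Genes that work with these kinases mostly fell too. For comparison, 27.3% of all genes tested were called lower and 38.1% higher. Of 13 other kinases of mitotic entry, exit and checkpoint control, 10 were called lower and 1 higher, with a median log2 fold change of -1.52. PKMYT1, which holds CDK1 inactive, fell from 12.2 ± 0.300 to 2.26 ± 0.311 FPKM (-2.43), and CDK1 itself fell from 26.8 ± 1.60 to 5.51 ± 0.837 FPKM (-2.29). MASTL, the Greatwall kinase, fell from 19.8 ± 0.390 to 3.87 ± 0.675 FPKM (-2.36), and HASPIN, which phosphorylates histone H3 to place Aurora B, from 15.2 ± 0.294 to 3.00 ± 0.498 FPKM (-2.35). CHEK1, the DNA damage and replication checkpoint kinase, fell by 2.2 and CIT, the citron kinase of cytokinesis, by 1.86 on the log2 scale. TLK1 (6.01 and 5.57 FPKM) and TLK2 (5.31 and 5.30 FPKM), kinases of histone chaperones, did not pass the test. The only called increase was LATS2, a Hippo pathway kinase, which was at 0 in every DMSO library and at 0.276 ± 0.0378 FPKM after inhibitor treatment (at least 28.1-fold against the same group floor).

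Of 11 activators and partners of Aurora A, Aurora B and PLK1, 10 were called lower and 1 higher (median log2 fold change -1.54). BIRC5, the survivin subunit of the Aurora B complex, fell from 24.5 ± 1.98 to 4.95 ± 1.47 FPKM (-2.31) and CDCA8, the borealin subunit, from 38.9 ± 1.68 to 10.1 ± 1.66 FPKM (-1.95). SGO1, which protects centromeric cohesion, fell from 6.72 ± 0.312 to 1.64 ± 0.425 FPKM (-2.03). AJUBA, a LIM protein reported to activate Aurora A, was the exception and rose from 0.0907 ± 0.0162 to 1.19 ± 0.0388 FPKM (3.66).

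Of 13 spindle checkpoint proteins and kinetochore receptors, 12 were called lower and 0 higher (median -1.33). NDC80, a microtubule-binding kinetochore subunit, fell from 31.8 ± 1.24 to 6.53 ± 1.14 FPKM (-2.29), and ZWINT from 52.1 ± 0.990 to 10.9 ± 1.35 FPKM (-2.27). KNL1, the platform on which BUB1 and BUBR1 dock, fell by 1.77 and MAD2L1, the checkpoint protein MAD2, by 1.72 on the log2 scale. MAD1L1, the partner of MAD2, had 11.0 ± 1.45 FPKM with DMSO and 12.4 ± 0.103 FPKM with the inhibitor and did not pass the test (edgeR adjusted p = 0.117).

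All 10 genes of centriole duplication were called lower (log2 fold changes of -1.55 to -0.38, median -0.92). STIL, the activator of PLK4, fell from 8.10 ± 0.285 to 2.77 ± 0.526 FPKM (-1.55) and CEP85, which binds STIL, from 24.2 ± 0.0687 to 8.52 ± 0.488 FPKM (-1.51). CEP152, a scaffold for PLK4, fell by 1.27 and CENPJ, which elongates centrioles, by 1.09 on the log2 scale.

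The anaphase-promoting complex, which ends mitosis by marking cyclins and securin for destruction, was divided. Of 20 genes for its subunits, ubiquitin enzymes, inhibitor and targets, 12 were called lower, 3 higher and 5 neither (median -0.52). Under upper-quartile scaling 11 were called lower and 6 higher (median -0.35), and under quantile normalization 12 and 5 (median -0.32). Of all 20783 genes tested, upper-quartile scaling called 4344 lower and 9312 higher. FBXO5, the inhibitor EMI1, fell from 48.2 ± 2.02 to 9.78 ± 1.28 FPKM (-2.31) and ESPL1, separase, from 20.5 ± 0.352 to 5.08 ± 0.632 FPKM (-2.02). PTTG1, securin, fell by 1.48 and UBE2C, the ubiquitin-conjugating enzyme of the complex, by 1.16 on the log2 scale. The 3 that rose were the subunits CDC16, from 9.48 ± 0.283 to 18.7 ± 0.440 FPKM (0.97), and ANAPC4, from 2.88 ± 0.169 to 3.95 ± 0.402 FPKM (0.45), and the G1 activator FZR1, from 5.45 ± 0.211 to 8.49 ± 0.523 FPKM (0.63). FZR1 targets Aurora A, Aurora B and PLK1 for destruction in textbook accounts, but protein was not measured here.

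Among 22 subunits and regulators of phosphatases that act against mitotic kinases, 14 were called lower and 2 higher, and the median was close to 0 (-0.19). Under upper-quartile scaling those counts were 9 lower and 6 higher, against 4344 lower and 9312 higher of all 20783 genes tested. CDCA2, a chromatin-targeting subunit of PP1, fell from 4.49 ± 0.279 to 1.59 ± 0.373 FPKM (-1.50), whereas PPP2CA, the PP2A catalytic subunit, fell from 41.5 ± 1.61 to 22.8 ± 0.764 FPKM (-0.87). PPP2R2A, a regulatory B subunit of PP2A, fell by 0.75 on the log2 scale. PPP6R2, a subunit of the Aurora A phosphatase PP6, rose from 4.91 ± 0.477 to 14.8 ± 0.103 FPKM (1.58), and PPP1CB, a catalytic subunit of PP1, from 14.9 ± 0.571 to 17.5 ± 1.27 FPKM (0.22).

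Of 15 genes for transcription factors, MuvB and DREAM subunits and regulators that switch the kinase genes on or off, 10 were called lower and 3 higher (median -1.03). FOXM1, an activator of mitotic genes, fell from 29.8 ± 2.01 to 6.01 ± 1.08 FPKM (-2.31). MYBL2, which encodes B-MYB, fell from 263 ± 7.85 to 83.6 ± 8.51 FPKM (-1.66) and LIN9, its MuvB partner, from 4.95 ± 0.233 to 1.87 ± 0.0872 FPKM (-1.41). RBL1, the p107 pocket protein, fell by 2.08, and the E2F partners TFDP2 and TFDP1 by 1.56 and 1.43 on the log2 scale. LIN52 (-1.10), LIN54 (-1.03), DYRK1A (-0.55) and E2F4 (-0.35), of the same list, were also called lower. The 3 increases were CDKN1A, RBL2 and E2F5. Like LIN52, LIN54, DYRK1A and E2F4, they were named after their values were seen. CDKN1A, the p21 inhibitor of cyclin-dependent kinases, rose from 12.2 ± 0.762 to 27.1 ± 1.28 FPKM (log2 fold change 1.15, edgeR adjusted p = 2.89e-07). RBL2, the p130 pocket protein of DREAM, rose from 8.09 ± 0.575 to 11.6 ± 0.645 FPKM (0.51) and E2F5, a repressor E2F, from 3.43 ± 0.317 to 4.92 ± 0.504 FPKM (0.51).

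**Figure D5:**
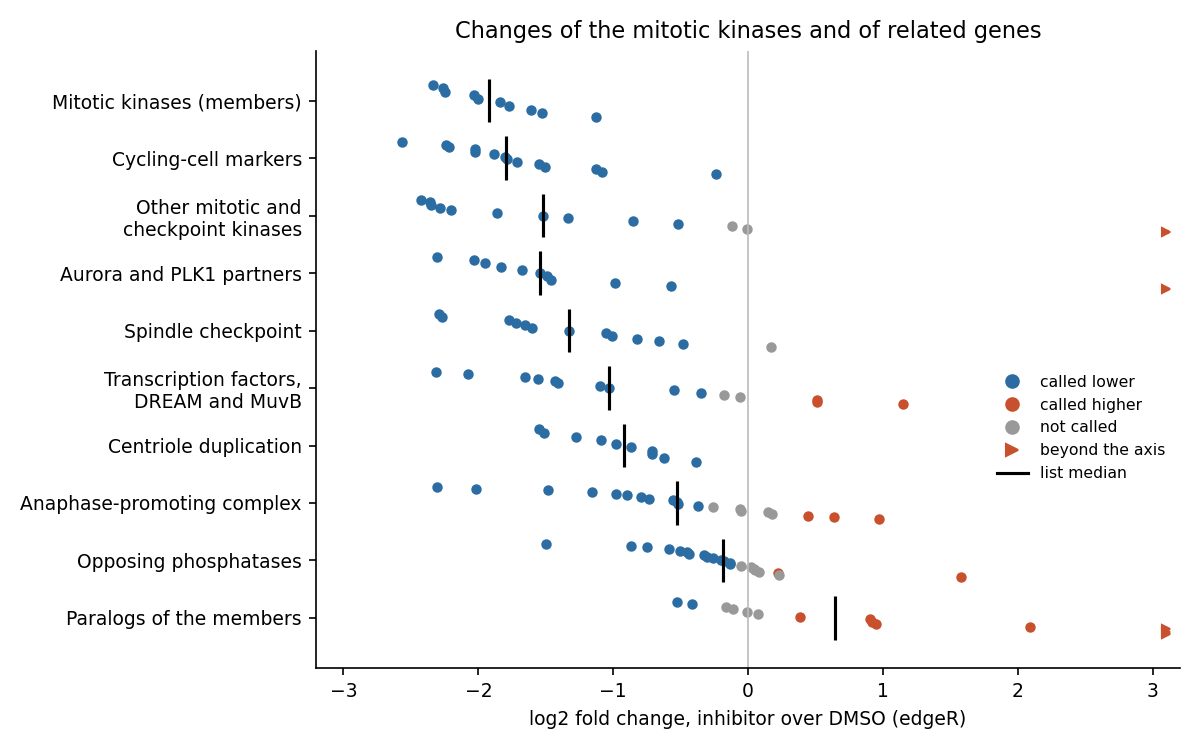
Log2 fold changes (inhibitor minus DMSO, edgeR) of the mitotic kinases and of the related gene groups; each point is a gene, the vertical bar in each row is the group's median, and triangles mark genes beyond the axis. The kinase genes lie between -2.34 and -1.12, the family paralogs are centred above 0 (median 0.65), and the other groups have medians between -1.79 and -0.19.

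The paralogs did not move in 1 direction. Of 14 further members of the Aurora, Polo-like and NEK families, 8 were called higher, 2 lower and 4 neither, with a median log2 fold change of 0.65. Over all genes tested 38.1% were called higher and 27.3% lower, and the median was 0.14. Only 4 of the 8 reached a mean of 1 FPKM in a group (AURKC, PLK2, PLK3 and NEK3), and the others (PLK5, NEK6, NEK10 and NEK11) had means of at most 0.293 FPKM. With genes required to reach 1 FPKM, 9 paralogs were tested, 4 were called higher and the median was 0.17. On the log2(FPKM + pseudocount) scale of limma 4 of 9 were called higher, with medians of 0.06 to 0.08.

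Markers of cells in cycle moved with the kinases. All 14 were called lower, with a median log2 fold change of -1.79, close to the -1.92 of the kinases, and 13 of them were lowest in inhibitor replicate 2, as the kinases were. PCNA, the replication clamp, fell from 916 ± 5.91 to 155 ± 16.9 FPKM (-2.57). MCM6, a subunit of the replicative helicase, fell by 2.24, RRM2, the ribonucleotide reductase subunit, by 2.21, and MKI67, the Ki-67 antigen, by 2.03 on the log2 scale. CCNB1, the cyclin that activates CDK1 and named here after its values were seen, had 16.7, 14.8 and 17.3 FPKM with DMSO and 13.9, 12.3 and 15.5 FPKM with the inhibitor. Its groups overlapped and its log2 fold change was only -0.24 (SE 0.0920, edgeR adjusted p = 0.0468), a call kept in 4 of 19 alternative settings and with a change of -0.03 under quantile normalization. How far the kinase results follow the share of cycling cells was not tested.

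The genes outside these lists whose profile over the 6 libraries lay nearest to the members' median profile were KIF15, HMMR, PSMC3IP, PCLAF and NUSAP1, of 12634 genes with a mean of at least 1 FPKM. Their root mean square distances on the log2 scale were 0.050, 0.059, 0.063, 0.073 and 0.073. KIF15, a spindle kinesin, had a mean of 13.1 FPKM with DMSO and 3.47 with the inhibitor, and HMMR, a spindle assembly factor, had 19.5 and 4.92. Among the members NEK2 was nearest to the shared profile (0.061) and AURKA farthest (0.404). The members themselves define this profile, and the outside genes were picked for the smallest distances. The distances of members and outside genes are therefore not comparable.

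How strand was handled in counting is unknown here, so overlapping genes bear on some values. The BUB1B span shares 3696 bases with PAK6, which had at most 24 counts in a library, and the genes overlapping PLK1 and PLK4 had at most 7. HASPIN lies opposite ITGAE on 2797 shared bases and PKMYT1 opposite PAQR4 on 4213 shared bases, and both partners also had fewer counts with the inhibitor, so their reads cannot be told apart. The partners of other named genes on the opposite strand were also well covered. PPP6R2 shares 1872 bases with SBF1, which had 15796 to 19685 counts per library. MASTL shares 19819 bases with ACBD5 (1653 to 2512 counts) and 443 with YME1L1 (10043 to 16408 counts). FOXM1 shares 2112 bases with ITFG2 (2144 to 2523 counts) and 917 with RHNO1. RHNO1 also had fewer counts with the inhibitor (1217, 1512 and 1586 with DMSO, 844, 816 and 822 with the inhibitor). MAD1L1 shares 417440 bases with ENSG00000286192 on its own strand, which had 3251, 1963 and 1558 counts with DMSO and 1037, 583 and 587 after treatment. How reads were divided within these pairs was not tested.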

How the data were processed

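Poly(A) RNA from 6 libraries was sequenced from both ends after dUTP marking of the second strand, per the labels' protocols. The tools named in the submitters' processing notes, without their roles, are HISAT2 2.2.1, StringTie 2.1.6, cutadapt 1.9, edgeR and DESeq2. Those notes name build mm10, but the gene IDs are human: 34105 of 35974 matched GENCODE release 29 and 99.89% of these overlapped their GRCh38 position, the 10 members included. The authors deposited a count and an FPKM value per gene and library. Per the file headers the scaling is not defined. The deposited counts behave like coverage, at about 4 per read pair: 1135 to 1500 genes per library had a count of 4, and 628 to 843 a count of 3. Counts were tested as deposited.

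Main test: edgeR 4.0.16 (R 4.3.3), quasi-likelihood, filterByExpr, TMM factors of 0.981 to 1.02, DMSO against inhibitor over 6 libraries, Benjamini-Hochberg over 20783 genes, two-sided, called at 0.05. SE was obtained as log2 fold change over the square root of F. The test was checked on simulated data. Within-library ratios used FPKM, which needs no pseudocount here, and exact permutation tests. Alternatives were DESeq2 1.42.0, its size factors, upper-quartile scaling, 2 filters, limma 3.58.1 on log2(FPKM + 0.5, 0.1 or 1) for genes of at least 0.5 FPKM in 3 libraries, quantile normalization, counts divided by 4, scaling without 121 abundant genes, a replicate block, each library left out, and inhibitor replicate 1 alone. Libraries with the same replicate number did not deviate together (correlations of deviations 0.00049, 0.0211 and 0.0027, all under 0.1). These correlations do not tell whether such libraries shared a culture.

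Members and gene lists were chosen with earlier results of these data known. Named genes were all members, their paralogs of at least 1 FPKM, the 6 most changed called genes of the kinase and transcription lists, the 4 most changed of each other list with those called against its majority, DNMT1, and the 5 nearest profiles. Each of these had a mean of at least 1 FPKM in a group. LATS2, TLK1, TLK2, MAD1L1, CCNB1, CDKN1A, RBL2, E2F5, LIN52, LIN54, DYRK1A and E2F4 fall outside this rule. So do the low paralogs PLK5, NEK6, NEK10 and NEK11. All of these were named after their values were seen. Promoter sequences are from RefSeq (GRCh38.p14). A fold against a group at 0 uses a floor of 12 counts (3 read pairs) over the group.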

Additional observations from a re-analysis of the deposited data

How the results depend on the processing

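Under 19 alternatives all 190 values of the 10 kinases kept direction and call. The largest edgeR, DESeq2 or limma adjusted p was 0.000402, for AURKA under quantile normalization. The members' median log2 fold change ran from -2.0 to -1.71, and from -2.0 to -1.77 when 1 library was left out, with 10 called lower and 0 higher each time. With inhibitor replicate 1 alone it was -1.78, and the lone library is then assumed to vary as the others do. All genes called lower ran from 5263 to 5434 and all genes called higher from 7481 to 8065 with 1 library left out, against 5672 and 7918. The count called higher was 4826 with a minimum of 1 FPKM, 5260, 5233 and 5259 with limma at pseudocounts of 0.5, 0.1 and 1, and 4853 under quantile normalization, where fewer genes were tested (12395 or 14807).

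With the replicate number as a block, the members' median was -1.94 and 10 of 10 were called lower. All genes called were 5368 lower and 7448 higher under the block. Libraries with the same replicate number did not deviate together, which does not tell whether they shared a culture.

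CCNB1 lost its call in 15 of 19 alternatives (log2 fold change -0.31 to -0.03). NEK1, NEK4, NEK7, TLK1 and TLK2, not called in the test as reported, each changed sign under upper-quartile scaling or quantile normalization. Of these, NEK4 and TLK2 were called higher under upper-quartile scaling, and NEK1 was called lower under quantile normalization and with inhibitor replicate 1 alone. PLK5, NEK6, NEK8, NEK10, NEK11 and PPP1CB lost their call with inhibitor replicate 1 alone. NEK10 also lost it without inhibitor replicate 1, and NEK11 without DMSO replicate 2 or inhibitor replicate 2 or 3. MAD1L1 was called higher under upper-quartile scaling, quantile normalization and the 1 FPKM minimum. Dose, time and independent cultures are unknown, and 3 libraries a group cannot bring an exact permutation p under 0.1.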
